A study of Mus musculus with 2 samples.

Results

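The p53 pathway genes examined here are a set of 10 genes, chosen with earlier results of these data known. They are Trp53, Mdm2, Fas, Trp53inp1, Gadd45a, Bbc3, Pmaip1, Sesn1, Ccng1 and Phlda3. Their probe sets, groups of short array probes that each read a transcript region, were those whose only gene symbol in the platform annotation was one of these names. This gave 17 of 45101 probe sets and 9 of 18193 genes. Trp53 itself had no probe set under this rule and was not analysed here. The series holds 2 Affymetrix mouse arrays of C2C12, a mouse myoblast line that fuses into myotubes when serum is lowered. The first array was made from cells with the hairpin shLrrfip1a, directed against Lrrfip1, and the second from control cells, labelled shLCUI in the sample labels and shLUCI in the series design. Both cultures had been kept for 5 days in differentiation medium with 2% horse serum after growth in 10% fetal bovine serum. Each group has 1 array, so no difference below has a replicate check, and no SD between cultures, standard error or p-value exists. The labels give 1 hairpin for Lrrfip1 and do not say whether the cells were a pool or a clone.

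The transcription factor p53 is held at low levels by the ubiquitin ligase Mdm2 and accumulates when DNA damage or other stress interrupts that control. It then raises transcription of genes that stop the cell cycle, repair DNA, limit growth signalling or start apoptosis, and of Mdm2 itself, which closes a feedback loop. Myoblasts leave the cell cycle when they differentiate, and the arrest gene Cdkn1a is induced in them by MyoD also without p53.

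Of the 9 genes measured, none differed 2-fold between the arrays, where 1.35% of 11448 genes above the level filter did so in either direction. On the scale used here, which adds 16 to each intensity, Fas and Gadd45a read at least 1.5-fold lower in shLrrfip1a cells. No member was at least 1.5-fold higher on that scale. Over all genes, 2.46% were at least 1.5-fold lower, 2.34% at least 1.5-fold higher and 4.8% either. Mdm2 and Trp53inp1 were higher in shLrrfip1a cells by just under that size. Without the added 16, their brightest probe sets read 151% and 150% of control intensity, so the added 16 sets on which side of 1.5-fold they fall. The other 5, Ccng1, Phlda3, Sesn1, Bbc3 and Pmaip1, differed by no more than 0.31 on the log2 scale. In RNA of whole cultures, fewer cells of a type and less RNA per cell cannot be told apart. Differences are shLrrfip1a minus control of log2(intensity + 16), a scale that understates differences, most of all those of dim probe sets. A gene stands at its brightest probe set, and a probe set passes the level filter when its mean over both arrays lies above the median of the non-control probe sets, an intensity of 52.4. The sizes of 2-fold and 1.5-fold are differences of 1 and 0.585 on this scale. All 9 genes lay above the filter, as did 15 of their 17 probe sets. Probe sets above it are called bright below.

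On the knockdown itself, the 3 probe sets of Lrrfip1 read 62.2% to 70.6% of control intensity in shLrrfip1a cells, with a mean difference of -0.55. The brightest differed by -0.48 and another by -0.51, both under 1.5-fold, and the remaining one by -0.66, past it. The arrays stood at similar levels, with median intensities of 53.5 in shLrrfip1a and 51.4 in control cells, over a range of 1 to 9165 in shLrrfip1a and to 9861 in control. All 8 myotube markers lay above the filter in these cells, and none reached 1.5-fold, where 4.8% of all genes did. The largest differences among these markers were those of Myod1 (0.56), Myog (-0.38) and Ckm (0.38). The log2 ratio of the 3′ to the 5′ control probe set was 0.52 in shLrrfip1a and 0.74 in control cells for beta-actin, and -0.04 and 0.00 in the same order for Gapdh. The bacterial and phage spike-in probe sets were lower in shLrrfip1a in 38 of 42 cases, with a median of -0.16. Scaling to them adds about that amount to every difference, and the members whose direction it turns are named where they are described.

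Promoter sequence is shown for 4 members so that Mdm2, Gadd45a and Fas, 3 of the 4 with the larger differences, can be set beside Ccng1, which differed little. RefSeq windows of build GRCm38.p6, from 250 bases before to 50 after a start site, were available for 8 of the 10 members, in 11 windows, with no entry used for Trp53inp1 and Pmaip1. Each is printed 5′ to 3′ on the strand of the gene. Capitals mark matches to the p53 decamer consensus, the 10-base unit that occurs as a pair in a complete p53 site. The consensus is its own reverse complement, so each match holds on both strands. Mdm2 is at chr10:117710709-117711008 (minus strand), Gadd45a at chr6:67037358-67037657 (minus), Fas at chr19:34290409-34290708 (plus) and Ccng1 at chr11:40755237-40755536 (minus).
Mdm2: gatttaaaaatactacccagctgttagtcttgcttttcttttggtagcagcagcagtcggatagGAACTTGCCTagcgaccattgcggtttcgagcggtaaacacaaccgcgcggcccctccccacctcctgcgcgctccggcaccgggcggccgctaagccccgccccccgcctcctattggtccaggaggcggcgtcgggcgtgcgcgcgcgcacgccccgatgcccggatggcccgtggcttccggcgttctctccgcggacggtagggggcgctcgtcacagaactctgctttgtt
Gadd45a: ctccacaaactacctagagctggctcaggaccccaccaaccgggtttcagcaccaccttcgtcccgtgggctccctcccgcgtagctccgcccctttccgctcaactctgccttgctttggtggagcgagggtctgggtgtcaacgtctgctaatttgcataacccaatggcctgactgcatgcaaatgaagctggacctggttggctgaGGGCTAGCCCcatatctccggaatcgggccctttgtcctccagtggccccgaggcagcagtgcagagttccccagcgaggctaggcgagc
Fas: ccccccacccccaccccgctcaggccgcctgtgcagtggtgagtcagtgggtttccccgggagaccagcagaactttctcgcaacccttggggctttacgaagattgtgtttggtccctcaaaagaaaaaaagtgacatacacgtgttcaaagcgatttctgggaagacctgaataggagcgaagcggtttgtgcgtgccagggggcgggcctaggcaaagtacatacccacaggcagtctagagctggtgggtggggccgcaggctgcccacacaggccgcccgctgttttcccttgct
Ccng1: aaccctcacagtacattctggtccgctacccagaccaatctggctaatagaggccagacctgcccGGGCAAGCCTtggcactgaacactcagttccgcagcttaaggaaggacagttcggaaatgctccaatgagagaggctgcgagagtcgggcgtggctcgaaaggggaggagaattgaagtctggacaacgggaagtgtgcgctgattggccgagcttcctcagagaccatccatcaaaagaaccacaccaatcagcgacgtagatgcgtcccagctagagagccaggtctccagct

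The match in Mdm2 begins 186 bases before the start site, that in Gadd45a 40 bases before it, and that in Ccng1 185 bases before it. The Fas window has none. Single matches were also present in the windows of Trp53 and in 1 of the 2 windows of Sesn1, and the windows of Bbc3 and Phlda3 had none. In all, 5 of 11 windows held the decamer, against 8.36% of 32851 RefSeq promoter windows of the same length. No window of a member held 2 exact decamers in the arrangement of a complete site (0 to 13 bases between them). Of all windows, 0.0731% did. Only exact matches were counted, so a complete site with a mismatched decamer would be missed. In the Ccng1 window the bases directly before the match, agacctgccc, depart from the consensus by a c where a or t is required. Whether p53 binds there was not tested. The well-known p53-responsive promoter of Mdm2 lies in its first intron, outside the window shown. Sequence outside the windows was not searched for any member, so a window with or without a match does not describe the whole gene. A match is a description of letters and not a measured site, and genes with a match were higher (Mdm2), lower (Gadd45a) and nearly level (Ccng1) in shLrrfip1a cells. The windows of the members were rich in G and C, with a median of 66.7% and 26 CpG dinucleotides, against 52.7% and 7 over all windows.

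Among the genes that act on p53 itself, Mdm2 was higher in shLrrfip1a cells. Its brightest probe set read 494 in shLrrfip1a and 328 in control cells, a difference of 0.57. Its second read 318 in shLrrfip1a and 213 in control (0.55), and the third, below the filter on both arrays, read 22.6 and 18.9 in the same order (0.15). Both bright probe sets thus gave 151% and 149% of control intensity, and all 3 had the same direction. Of all genes above the filter, 5.17% had a larger absolute difference than Mdm2.

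Trp53inp1, a stress-induced partner of p53 that also takes part in autophagy, showed the same direction and size. Its brighter probe set read 1254 in shLrrfip1a and 835 in control cells (0.58), or 150% of control. The dimmer one read 60.0 in shLrrfip1a and 46.4 in control (0.28), so the brighter probe set carried the larger difference. Mdm2 and Trp53inp1 passed 1.5-fold with a pseudocount of 1 (0.59 each) or with spike-in scaling (0.72 and 0.74), and stayed under it in the other 7 alternatives. With the mean over probe sets they came to 0.42 and 0.43.

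Ccng1 encodes cyclin G1, a strongly p53-dependent gene whose product brings a phosphatase to Mdm2. Its 3 probe sets read 1321, 543 and 356 in shLrrfip1a cells, against 1167, 559 and 342 in control cells. The differences of 0.18, -0.04 and 0.06 did not share a direction, and 44.8% of genes differed by more than its brightest probe set.

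**Figure D1:**
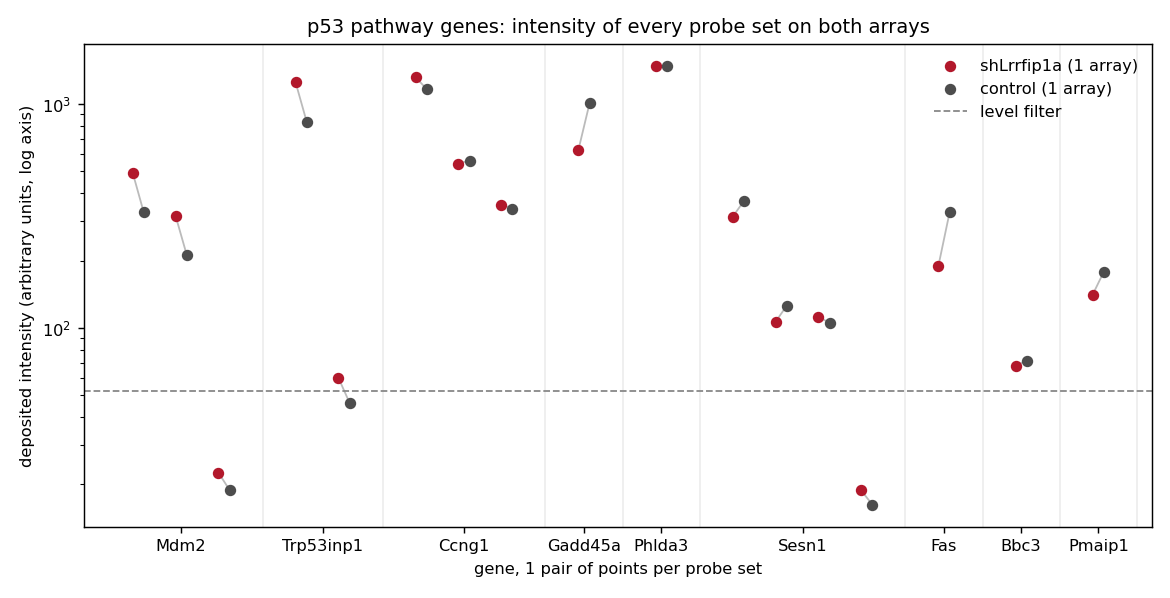
Deposited intensity (log axis) of each of the 17 probe sets of the 9 measured genes, with the shLrrfip1a array left (red) and the control array right (grey) in each joined pair. The dashed line is the level filter of 52.4. The lines slope down to control for Mdm2 and Trp53inp1, slope up to control for Gadd45a and Fas, and are nearly flat for Phlda3 and Bbc3.

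Among the genes of arrest and growth control, Gadd45a was lower in shLrrfip1a cells. Gadd45a encodes a stress-inducible protein that links DNA damage to cell cycle arrest, repair and p38 kinase signalling. Its single probe set read 624 in shLrrfip1a and 1008 in control cells, which is 61.9% of control and a difference of -0.68. Of all genes, 3.54% had a larger absolute difference. Gadd45a remained at least 1.5-fold lower in all alternatives but spike-in scaling, where it came to -0.52.

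Both relatives of Gadd45a were lower too, though by less than 1.5-fold. Gadd45b read 541 in shLrrfip1a and 710 in control cells (-0.38, with -0.38 and -0.32 on its other bright probe sets). Gadd45g read 607 in shLrrfip1a and 838 in control (-0.46). The family thus read lower on every bright probe set, and with spike-in scaling its 5 probe sets ran from -0.52 to -0.17.

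Sesn1 encodes sestrin 1, which restrains the growth kinase complex mTORC1 and counters oxidative stress. Its brightest probe set read 314 in shLrrfip1a and 369 in control cells (-0.22), and a second read 107 and 126 in the same order (-0.21). The next read 112 in shLrrfip1a and 105 in control (0.08), and the last, below the filter, read 18.8 and 16.2 (0.11). The probe sets thus lay on both sides of 0, with a mean of -0.06. The brightest probe set and the one that read 112 are of a type that can bind related transcripts. Among genes named below, the same is true of the brightest probe sets of Aifm2, Igfbp3, Pltp, Bmf, Bik and Mdm4. Its paralogs Sesn2 (314 in shLrrfip1a, 256 in control) and Sesn3 (448 in shLrrfip1a, 306 in control) differed by 0.28 and 0.53, in the direction opposite to the brightest Sesn1 probe set. Sesn3 gave 0.17 on its other bright probe set.

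Phlda3, whose product competes with the kinase Akt for membrane lipids, was level at 1480 in shLrrfip1a and 1481 in control cells. Its difference was 0.00 to 2 decimals, and 99.9% of genes differed by more. With spike-in scaling its difference was 0.16.

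Among the genes of cell death, Fas had the largest absolute difference of the 9 as reported, though not with spike-in scaling, where Trp53inp1 and Mdm2 exceeded it, or with a pseudocount of 64, where Gadd45a did (-0.64, against -0.63 for Fas). Fas encodes the death receptor that starts caspase activation when Fas ligand binds. Its single probe set read 190 in shLrrfip1a and 328 in control cells, 57.9% of control, a difference of -0.74. Of all genes, 2.94% had a larger absolute difference, and Fas stayed at least 1.5-fold lower in all 9 alternatives, between -0.79 and -0.59. The genes around the receptor differed less. Fasl, the ligand gene, lay below the filter at 34.1 in shLrrfip1a and 34.2 in control cells. The adaptor gene Fadd read 79.7 in shLrrfip1a and 72.8 in control (0.11), the initiator caspase gene Casp8 319 and 336 in the same order (-0.07), and the caspase-8 inhibitor gene Cflar 514 and 620 (-0.26, with -0.25 to 0.11 on its other bright probe sets).

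Bbc3 and Pmaip1 encode PUMA and NOXA, BH3-only proteins that neutralise the survival proteins of the Bcl2 family. Pmaip1 read 141 in shLrrfip1a and 179 in control cells (-0.31), and 20.9% of genes had a larger absolute difference. Bbc3 was the member closest to the filter, at 67.8 in shLrrfip1a and 71.6 in control (-0.06, or 0.07 with spike-in scaling). Both have 1 probe set, and neither reached 1.5-fold in any alternative where it was measured.

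**Figure D2:**
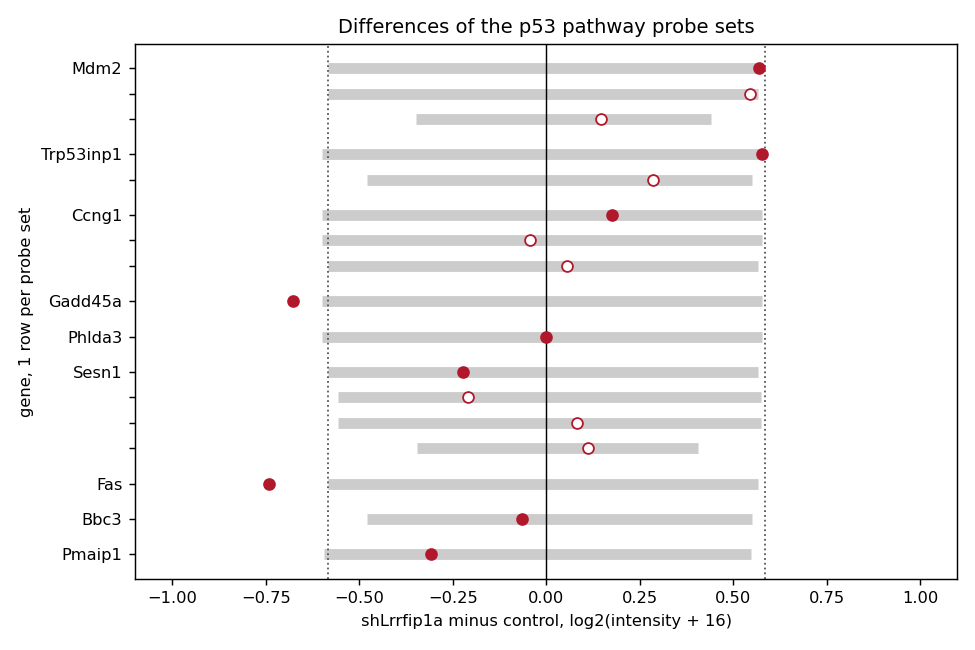
Difference of each probe set on the log2 scale, shLrrfip1a minus control, with filled points for the brightest probe set of a gene and open points for its others. Grey bars span the middle 95% of differences among probe sets of similar brightness, and dotted lines mark 1.5-fold. Fas and Gadd45a lie left of their bars, Gadd45a by less, and the brightest probe sets of Mdm2 and Trp53inp1 lie at the right ends of theirs.

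To show how wide differences run at each brightness, all non-control probe sets were divided into 10 equal groups by mean level. By this yardstick, which describes these arrays and is not a spread between cultures, 4 of the 17 probe sets lay outside the middle 95%. They were the single probe sets of Fas (range -0.58 to 0.57) and Gadd45a (-0.60 to 0.58) and the brightest ones of Mdm2 (0.569 against an upper end of 0.565) and Trp53inp1 (0.578 against 0.577). The last pair therefore lay at the edge. The remaining 13 lay inside, among them Pmaip1 and every probe set of Sesn1 and Ccng1. By the same yardstick the Lrrfip1 probe sets at -0.48 and -0.51 lay inside, and that at -0.66 outside. Of the 4 genes with several probe sets, Mdm2 and Trp53inp1 had all of theirs on the same side of 0. The 5 genes with 1 probe set have no such check, and Fas and Gadd45a are among these.

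As a group the 9 genes had no common direction. In shLrrfip1a cells 3 were higher and 6 lower, with a median difference of -0.06, against 0.00 over all 11448 genes, of which 50.7% were higher. The 6 lower members include the nearly level Phlda3 and Bbc3. The median absolute difference of the members was 0.31, against 0.16 over all genes, in a set chosen with earlier results of these data known. With spike-in scaling 5 were higher, the members' median was 0.07 and that of all genes 0.15.

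The wider p53 program was described through lists of textbook targets outside the 10. Of 54 such genes, 49 had a probe set and 46 lay above the filter. In shLrrfip1a cells 3 of these passed 1.5-fold upward and 1 downward, 8.70% together, against the 4.8% of all genes. With spike-in scaling 6 passed upward and 0 downward, where 6.64% of all genes passed in either direction. Most of the differences were small and positive. Of the 46, 33 were higher and 13 lower, and their median difference was 0.18, against 0.00 over all genes. The median was positive in all 9 alternatives. It ran from 0.13 with median centring, where all genes had -0.04, to 0.32 with spike-in scaling, where all genes had 0.15. Both scalings shift a whole array, so the targets and all genes move by about the same amount by construction.

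Of the 8 arrest targets above the filter, 6 were higher in shLrrfip1a cells and none reached 1.5-fold (median 0.24). Over all genes above the filter, 50.7% were higher and 4.8% reached 1.5-fold in either direction. Cdkn1a, which encodes the cyclin-dependent kinase inhibitor p21, was nearly level at 3396 in shLrrfip1a and 3335 in control cells (0.03, with -0.06 on its other bright probe set). The largest differences were those of the polo-like kinase gene Plk2 (912 in shLrrfip1a, 660 in control, 0.46), the antiproliferative Btg2 (292 in shLrrfip1a, 213 in control, 0.43) and the phosphatase gene Ptprv (0.32). Of 12 apoptosis targets 10 were higher (median 0.14). The exception past 1.5-fold was Aifm2, an oxidoreductase gene, at 72.6 in shLrrfip1a and 121 in control (-0.63, with -0.40 and -0.38 on its other bright probe sets). Zmat3, an RNA-binding p53 target, read 714 in shLrrfip1a and 516 in control (0.46), and Apaf1, the scaffold of the apoptosome, read 137 and 185 in the same order (-0.39). The apoptosis targets therefore held differences in both directions, but most were higher. As reported, 6 of the 9 members were lower, among them the nearly level Phlda3 and Bbc3.

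Of 17 repair and metabolism targets 12 were higher (median 0.16). The xylulose reductase gene Dcxr was past 1.5-fold at 351 in shLrrfip1a and 224 in control cells (0.62), followed by the epoxide hydrolase gene Ephx1 (1195 in shLrrfip1a, 922 in control, 0.37) and the kinase subunit gene Prkab1 (0.35). Of 9 secreted and membrane targets 5 were higher (median 0.30). Igfbp3, which binds insulin-like growth factors, was the 1 target past 2-fold, at 613 in shLrrfip1a and 97.9 in control (2.47, with 2.29 on its other bright probe set). The chemokine gene Cx3cl1 read 374 in shLrrfip1a and 224 in control (0.70), but its other bright probe sets ran from -0.24 to 0.61. The lipid transfer gene Pltp differed by 0.54. These targets answer to several other regulators besides p53, and the lists were chosen with earlier results of these data known, among them the value of Igfbp3.

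**Figure D3:**
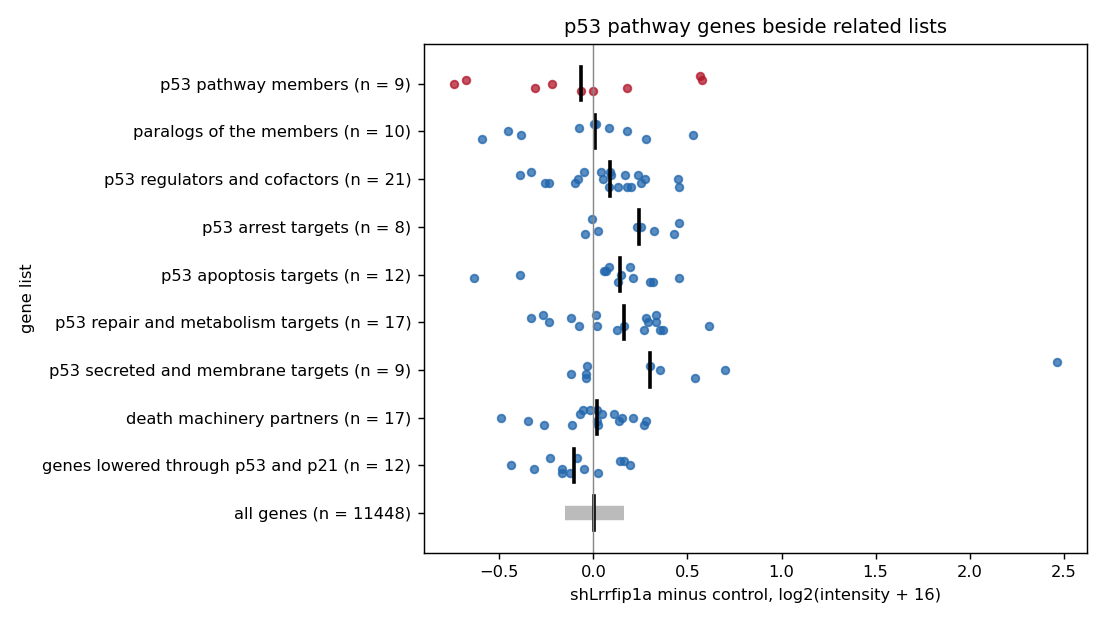
Difference of each gene above the level filter, shLrrfip1a minus control on the log2 scale, in the 9 measured p53 pathway genes (red) and in related lists (blue). Black ticks are list medians, and the grey bar at the bottom spans the middle 50% of all 11448 genes. The members spread from -0.74 to 0.58 around a median of -0.06, and the 4 target lists have medians between 0.14 and 0.30.

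None of 21 regulators and cofactors of p53 reached 1.5-fold, where 4.8% of all genes did (14 higher and 7 lower, median 0.09). The acetyltransferase genes Crebbp (576 in shLrrfip1a, 415 in control, 0.46) and Ep300 (534 in shLrrfip1a, 386 in control, 0.45) had the largest differences, followed by the checkpoint kinase gene Chek2 (49.4 in shLrrfip1a, 69.7 in control, -0.39). The other Crebbp probe sets above the filter ran from -0.01 to 0.35. Mdm4, the relative of Mdm2 that also binds p53, differed by 0.08, and the damage kinase genes Atm and Atr by 0.18 (-0.12 on the other bright Atm probe set) and -0.10. Cdkn2a, whose p19Arf product inhibits Mdm2, lay below the filter at 12.4 in shLrrfip1a and 10.4 in control.

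Of 10 paralogs of the members above the filter, 1 passed 1.5-fold, where 4.8% of all genes did. That paralog was Ccng2, the relative of Ccng1, at 414 in shLrrfip1a and 632 in control cells (-0.59, with -0.41 on its other bright probe set). With Sesn3 and Gadd45g, described above, it was among the 3 largest of that list. Of 17 partners of the death genes none reached 1.5-fold (median 0.02), and the largest differences were those of the BH3-only gene Bmf (64.2 in shLrrfip1a, 96.9 in control, -0.49), the pore-forming Bak1 (110 in shLrrfip1a, 144 in control, -0.35) and the BH3-only gene Bik (0.28). The survival genes Bcl2, Bcl2l1 and Mcl1 differed by 0.15, 0.05 and 0.27.

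Cell cycle genes that are lowered when p53 acts through p21 had a median of -0.11 over 12 genes, 4 higher and 8 lower. None of them reached 1.5-fold, where 4.8% of all genes did. Ccnb2 had the largest difference (356 in shLrrfip1a, 488 in control, -0.44), followed by Top2a (-0.32, with -0.06 on its other bright probe set) and Mki67 (749 in shLrrfip1a, 881 in control, -0.23). With spike-in scaling their median turned to 0.03.

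Markers of other cells that a C2C12 culture could hold also differed between the arrays. The 7 fibroblast or unfused cell markers summed to 12890 in shLrrfip1a and 10047 in control cells. The 6 without Dcn summed to 9393 and 9787 in the same order, most of it Col3a1 at 7579 and 7324. Of these 6, 2 were higher and 4 lower in shLrrfip1a cells. Of the 7 markers, 6 lay above the filter, 3 higher and 3 lower. Dcn read 3497 in shLrrfip1a and 260 in control, Myf5 82.8 and 159 in the same order, and Col1a1 1384 and 1854. Pax7, of undifferentiated myoblasts, had a mean below the filter and read 22.6 in shLrrfip1a and 70.4 in control (-1.16). Of 5 adipocyte markers with a probe set, Lpl and Cebpa (0.19) lay above the filter. Lpl read 438 in shLrrfip1a and 280 in control (0.62, with 0.33 on its other bright probe set). The others had means below the filter, with Adipoq at 7.51 in shLrrfip1a and 7.42 in control. Pparg read 54.9 and 43.8 in the same order, and Fabp4 24.3 and 32.2, the opposite direction. The 5 summed to 739 in shLrrfip1a and 549 in control, mostly from Lpl and Cebpa. The part of these cells in the differences of Fas, Gadd45a, Mdm2 and Trp53inp1 was not tested.

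**Figure D4:**
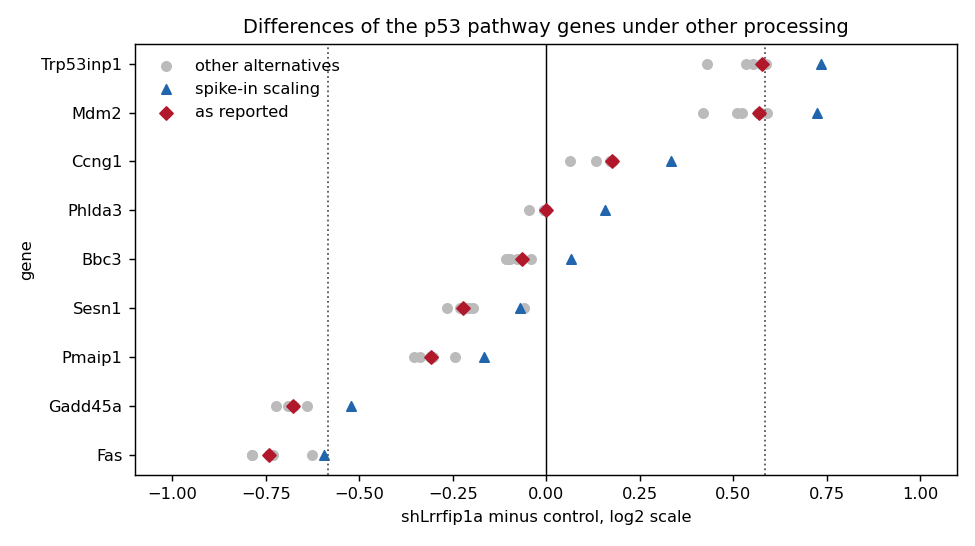
Difference of each p53 pathway gene on the log2 scale, shLrrfip1a minus control, as reported (red diamonds), with spike-in scaling (blue triangles) and under the other alternatives (grey points). Dotted lines mark 1.5-fold. Fas and Gadd45a stay on the negative side and Mdm2 and Trp53inp1 on the positive side in every setting, while Bbc3 and Phlda3 lie on both sides of 0.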

How the data were processed

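Total RNA (6 ug) of 2 cultures was labelled with biotin for Affymetrix arrays, per the labels' protocols. The authors deposited 1 linear intensity per probe set and array. How probes were summarised, corrected and scaled is not given in the sources used here. Detection calls were not used, so a low reading is not called absent. The number of arrays limits the precision. Of 45101 probe sets, 34945 non-control ones had 1 gene symbol, 932 had several and 9211 none. From these intensities log2(value + 16) was computed, and differences were taken as shLrrfip1a minus control, with no test, in Python 3.11.15, numpy 2.4.6, pandas 2.3.3 and statsmodels 0.14.6. The procedure was tested on simulated data, where calls were scored at 2-fold and not at 1.5-fold. Every member and Lrrfip1 is named, and in other lists the genes past 1.5-fold and the 3 with the largest absolute difference. Genes named beyond this rule (relatives, receptor partners, survival genes, regulators and Cdkn1a) were chosen after their values were seen. The members and lists were chosen with earlier results of these data known. Alternatives were 4 scalings, 2 pseudocounts, 2 filters and the mean over probe sets.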

Additional observations from a re-analysis of the deposited data

How the results depend on the processing

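No paired analysis was possible because there was 1 array a group, and none could be left out. Under 9 alternatives no member reached 2-fold. The count of members at least 1.5-fold different was 4 with a pseudocount of 1 (2 higher, 2 lower), against 2 as reported (0 higher, 2 lower), and 3 with spike-in scaling (2 higher, 1 lower). The share of all genes at that size was 6.19% with a pseudocount of 1 and 6.64% with spike-in scaling, against 4.8% as reported. The count of other p53 targets at that size was 2 with a pseudocount of 64 and 2 with the mean over probe sets, against 4 as reported, and the share of all genes was 3.05% and 3.46% in those settings. Spike-in scaling moved the median of all genes to 0.15, against 0.00 as reported. It turned the members' median to 0.07, against -0.06, and brought Gadd45a to -0.52. The median of the other targets stayed positive in every alternative. With the 75th percentile filter 8 members remained, without Bbc3. No spread between cultures is known, so which of these sizes exceeds it was not tested.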
